A study of Mus musculus with 12 samples.

Results

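Ccl17 and Ccl22 encode CC chemokines, and Ccr4 encodes the receptor that both bind. These 3 genes were taken by name from the 770 genes of a panel, largely of the immune system, counted in primary tumours of a mouse hepatocellular carcinoma model. They were chosen by their levels across the 4 groups of the study, which were known from earlier work on the same data. Their levels and differences between groups are therefore given as a description, with no test.

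CCL17 and CCL22 are secreted chiefly by dendritic cells and macrophages. T cells that carry CCR4 move toward them, and regulatory T cells and type 2 helper T cells are the best known of these. Type 2 cytokines acting through the transcription factor STAT6 are known to induce both ligands in myeloid cells, and CCL22 in tumours is known for drawing regulatory T cells.

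The 12 samples formed 4 groups of 3. The first group received isotype antibody. The second received dICB, which is anti-PD-1 with anti-CTLA4 antibody. The other two received dICB with Dexa at 10 mg or with Dexa at 200 mg. The title of the series concerns corticosteroid premedication, but the labels do not spell Dexa out and give its doses with no body weight or schedule. No group had Dexa without dICB. The labels do not state strain, age or tumour line. A code in the labels, of unstated meaning, read ICI7 for all isotype samples and ICI10 for all dICB samples. The 10 mg group had 2 samples coded ICI7 (replicates 1 and 3), and the 200 mg group had 1 (replicate 3). Whether each sample is a separate animal is not stated, and p-values then measure only the spread between these samples, which may be technical.

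Total gene counts ran from 252994 to 428944 per sample. Levels below are normalised counts, meaning counts scaled to a common library size of 357620. The background limit of a sample was the mean of its 8 negative control probes plus 2 standard deviations, and ran from 18.1 to 38.1 counts. Libraries treated as standing apart were dICB replicate 1, with summed neutrophil markers of 18109 where all other samples held 263 to 627, and 10 mg replicate 2. In the latter the total (411178) and the genes above the limit (559, against 549 to 604 over all samples) were not extreme. It held the highest Ccl17 level of the 10 mg group, so leaving it out removes that value. Tissue markers were partly on the panel: the hepatocyte list had 5 of its 9 genes there, of which only C3, a complement gene that other cells make too, lay above the limit, while Epcam of epithelial cells did so in all 12 samples.

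Both ligand genes lie on mouse chromosome 8 of GRCm38.p6, Ccl22 at chr8:94745684-94751388 and Ccl17 at chr8:94809380-94812038. They are separated by 57991 bases that hold 1 protein-coding gene, Cx3cl1 (chr8:94772180-94782427), which encodes the chemokine fractalkine. Ccr4 lies on chromosome 9 (chr9:114490316-114505476). The 250 bases before the start that RefSeq's promoter table gives for each of these 3 genes are shown because the levels of the outer pair differed widely between groups and those of the gene between them did not. They are from RefSeq (GRCm38.p6), on the plus strand, with letters that match a searched motif in capitals. For Ccl22 and Cx3cl1 that start is the first base of the gene span given above. For Ccl17 it is position 94810453, which lies 1073 bases inside the span, so its window is upstream of an inner transcript start and within the annotated gene.
Ccl17 (chr8:94810203-94810452): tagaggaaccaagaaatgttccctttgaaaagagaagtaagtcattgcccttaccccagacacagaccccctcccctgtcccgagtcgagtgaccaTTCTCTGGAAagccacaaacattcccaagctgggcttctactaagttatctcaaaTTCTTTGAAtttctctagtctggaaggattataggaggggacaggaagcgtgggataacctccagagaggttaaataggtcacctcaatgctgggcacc
Ccl22 (chr8:94745434-94745683): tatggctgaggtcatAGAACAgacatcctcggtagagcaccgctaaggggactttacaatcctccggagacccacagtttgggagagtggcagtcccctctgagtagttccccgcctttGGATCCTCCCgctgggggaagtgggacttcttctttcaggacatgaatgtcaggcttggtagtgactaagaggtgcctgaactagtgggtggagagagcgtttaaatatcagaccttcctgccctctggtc
Cx3cl1 (chr8:94771930-94772179): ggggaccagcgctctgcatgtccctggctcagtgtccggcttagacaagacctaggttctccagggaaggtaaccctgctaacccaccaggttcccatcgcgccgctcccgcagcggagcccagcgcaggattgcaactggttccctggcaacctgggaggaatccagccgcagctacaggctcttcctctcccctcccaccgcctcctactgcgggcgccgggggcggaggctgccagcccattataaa

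The motifs searched, on both strands, were TTC and GAA with 4 or 3 bases between them, spacings bound by STAT proteins (STAT6 prefers 4), the hexamer AGAACA of the glucocorticoid receptor, its palindrome (AGAACA and TGTTCT with 3 bases between), and GGGA and CC with 4 bases between for NF-kB. The Ccl17 window held 1 match to each STAT spacing, TTCTCTGGAA starting 154 bases and TTCTTTGAA starting 99 bases before that inner start. Among all 32851 promoter windows of that length, 5.85% held the first kind and 7.02% the second. The Ccl22 window held 1 AGAACA, found in 16.1% of windows, and 1 NF-kB match on the minus strand, found in 17.6%. The palindrome was in none of the 3 windows and in 0.00913% of all. The Cx3cl1 window held 0 matches to any of the 5 motifs. These are matches of letters and no evidence of binding.

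Ccl17 was lowest in isotype tumours and highest in the 200 mg group. Its levels in replicates 1, 2 and 3 were 42.2, 57.7 and 47.1 under isotype and 54.4, 93.7 and 67.0 under dICB. They were 105, 291 and 100.1 at 10 mg and 175, 404 and 202 at 200 mg. Every sample with Dexa lay above every sample without it, while isotype and dICB overlapped, as did the 10 mg and 200 mg groups. The share of all genes split by Dexa in this way was not counted. Group means were 49.0 ± 7.90 for isotype, 71.7 ± 20.1 for dICB, 166 ± 109 at 10 mg and 260.3 ± 125.5 at 200 mg (SD, n = 3 each). Replicate 2 of the 10 mg group and replicate 2 of the 200 mg group, both coded ICI10, set the wide spread of the Dexa groups.

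Ccl22 followed the same order of group means over a smaller range. It stood at 32.8, 45.1 and 43.7 under isotype and at 58.8, 102 and 49.1 under dICB. At 10 mg it stood at 92.6, 120.1 and 62.7, and at 200 mg at 129, 134 and 108. All 9 dICB-treated samples lay above the 3 isotype samples, a split whose share over all genes was not counted. The 10 mg group overlapped with both of its neighbours in this order, whereas the 200 mg group lay above all dICB samples. Group means were 40.6 ± 6.71, 69.9 ± 28.0, 91.8 ± 28.7 and 123 ± 13.8 (SD, n = 3 each).

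Ccr4 was not above background in any tumour. Its counts were 15, 15 and 20 under isotype, 17, 22 and 8 under dICB, 11, 22 and 18 at 10 mg, and 17, 6 and 12 at 200 mg. In 0 of 12 samples did it exceed the background limit, and in 1 of 12 the mean of the negative controls. Its level could not be told from background in any group, so no fold is given for the receptor, and a difference between groups was not detectable at this depth. Of the 770 genes, 77, Ccr4 included, had a mean count no higher than its 15.2.

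**Figure D1:**
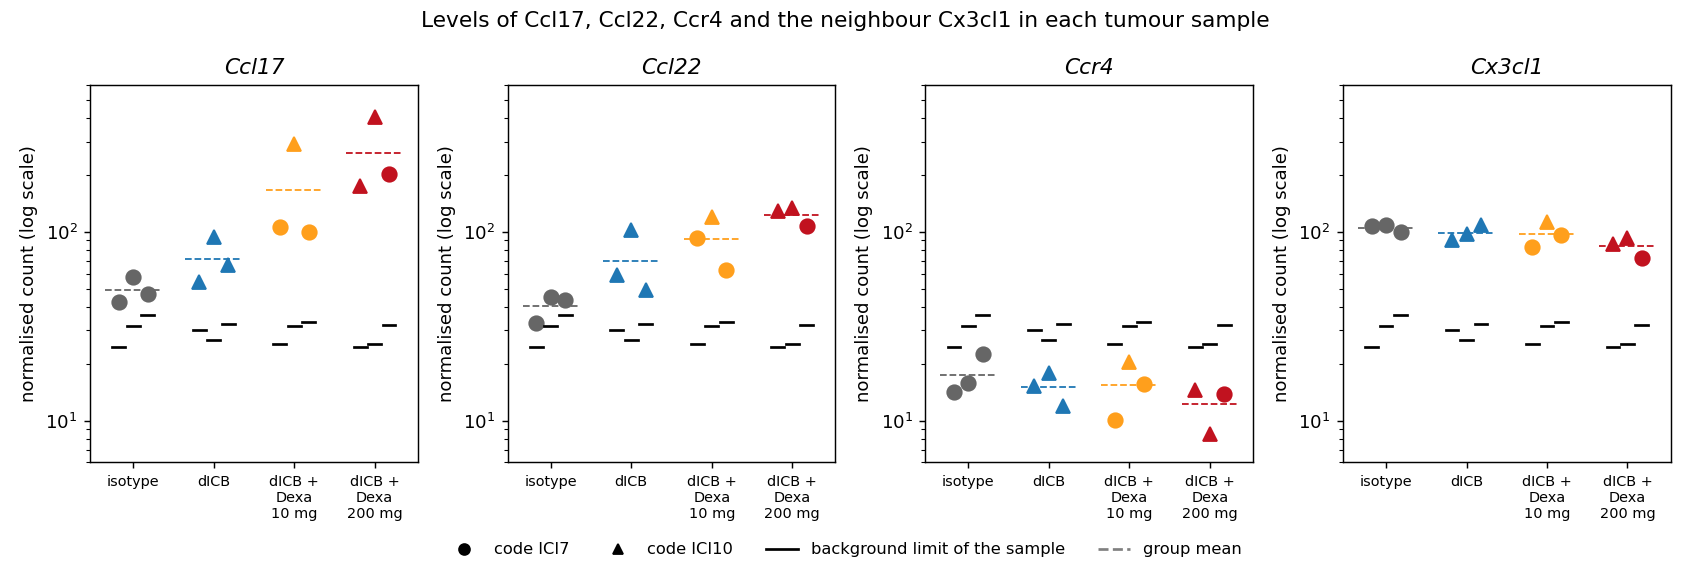
Normalised counts (log scale) of Ccl17, Ccl22, Ccr4 and Cx3cl1 in each of the 12 samples, by group. Symbols give the code in the labels, short black bars the background limit of that sample and dashed lines the group mean. Ccl17 and Ccl22 lie above the limit in all 12 samples, lowest under isotype, whereas Ccr4 lies below it in all 12 and Cx3cl1 stays between 72.3 and 113.

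The difference between dICB and isotype asks what the antibodies changed. On the log2 scale, Ccl22 was 0.80 ± 0.31 higher under dICB and Ccl17 0.55 ± 0.45 higher (log2 fold change ± SE from the edgeR fit). Of both ligands, Ccl22 did not overlap between the groups, and 9.92% of the 635 genes tested lay without overlap higher under dICB. The code differed between these groups throughout, and its part cannot be told apart from that of the antibodies. With the code as a covariate, estimated from the Dexa groups, Ccl17 turned to -0.46 ± 0.50 and Ccl22 was 0.34 ± 0.42. Without dICB replicate 2 the values were 0.28 for Ccl17 and 0.40 for Ccl22.

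The lower Dexa dose was compared with dICB alone. Ccl17 was 1.20 ± 0.44 higher than under dICB alone without overlap, where 3.78% of genes were so, and Ccl22 was 0.38 ± 0.30 higher with overlap. Much of both differences came from 10 mg replicate 2. Without it they were 0.52 and 0.14, and without dICB replicate 1 as well 0.34 and -0.0020. Among samples coded ICI10, where that replicate is the only 10 mg sample, they were 2.02 and 0.77. Leaving out dICB replicate 2 instead gave 0.81 for Ccl22.

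At 200 mg both ligands lay above dICB without overlap. Ccl17 was 1.85 ± 0.45 higher, a fold of 3.61, and Ccl22 was 0.80 ± 0.30 higher, a fold of 1.75. Of all genes, 5.04% lay above dICB in this way. Among samples coded ICI10, with 2 samples at 200 mg against 3, the values were 2.00 and 0.90. Leaving out 1 library at a time kept Ccl17 between 1.39 and 2.10 and Ccl22 between 0.61 and 1.18. Between the doses both ligands overlapped, where 9.61% of genes were higher at 200 mg without overlap. Ccl17 was 0.65 ± 0.43 higher at 200 mg and Ccl22 0.43 ± 0.30. The difference in Ccl17 was 1.33 without 10 mg replicate 2 and 0.12 without 200 mg replicate 2, and that in Ccl22 was 0.66 without 10 mg replicate 2 and 0.21 without 10 mg replicate 3. For Ccl17 it was 0.97 within code ICI7, where replicate 3 was the only 200 mg sample. Within ICI10, where replicate 2 was the only 10 mg sample, it was -0.014. No direction between the doses thus held for Ccl17 in both codes, but each value rests on 1 sample at 1 of the doses.

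The widest difference of both ligands was that of 200 mg against isotype. The comparisons of the Dexa groups with isotype share the isotype samples. At 10 mg Ccl17 was 1.76 ± 0.45 and Ccl22 1.18 ± 0.31 higher, and at 200 mg they were 2.40 ± 0.46 and 1.61 ± 0.31 higher, a fold of 5.29 and 3.04. No overlap was seen for either ligand at either dose, while 8.03% of genes at 10 mg and 20.9% at 200 mg were higher without overlap. Among samples coded ICI7 alone, Ccl17 was 1.05 higher at 10 mg (2 samples) and 2.02 at 200 mg (1 sample), and Ccl22 0.92 and 1.39. Without 10 mg replicate 2 the Ccl17 value at 10 mg was 1.05.

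Because isotype levels lay near background, these folds are understated. The isotype counts of Ccl22 were 35, 43 and 39 against limits of 26.1, 30.3 and 32.3. With the mean negative control count subtracted, Ccl22 stood at 20.7 ± 3.25 under isotype and 106 ± 15.1 at 200 mg (n = 3 each), a log2 difference of 2.36. Ccl17 then stood at 29.1 ± 6.45 and 243 ± 127, a log2 difference of 2.97. The scaling moved the folds by a similar amount for Ccl17. At 200 mg against isotype Ccl17 was 2.40 higher with the main scaling, 2.96 with housekeeping gene factors and 2.72 with positive control factors, and Ccl22 1.61, 2.15 and 1.96. The median of all genes was 0.03, 0.55 and 0.34 under these scalings, so that both ligands stayed above it.

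**Figure D2:**
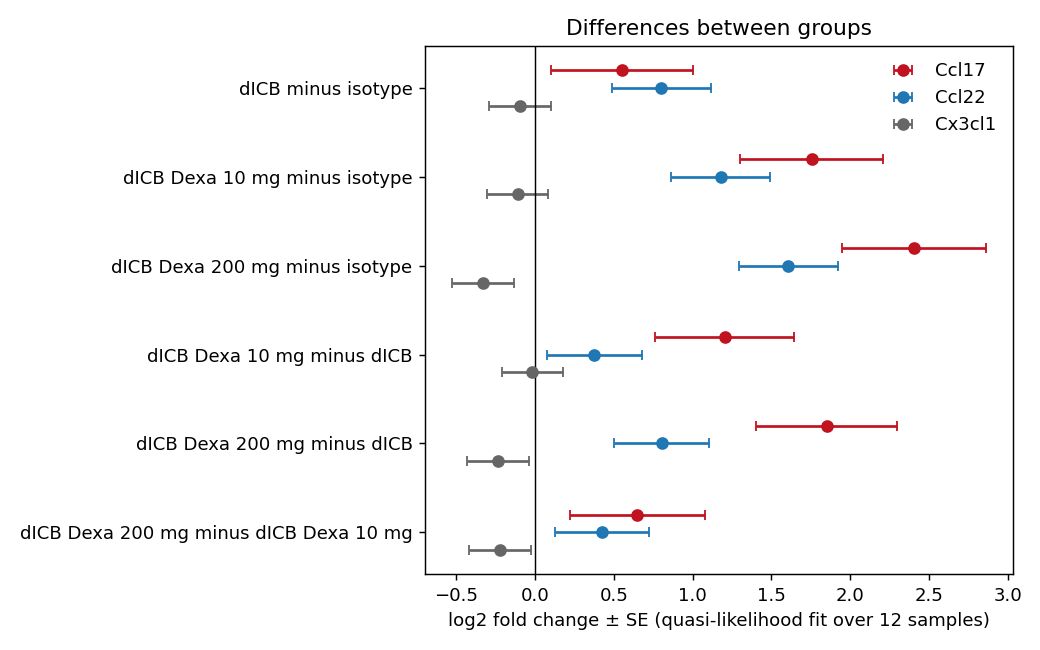
Log2 fold changes of Ccl17, Ccl22 and Cx3cl1 in the 6 comparisons between groups, with bars of 1 standard error on each side (edgeR fit over 12 samples). The ligands of Ccr4 lie above 0 in each comparison, up to 2.40 for Ccl17 and 1.61 for Ccl22, while Cx3cl1 lies between -0.33 and -0.02.

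The gene between them did not share this pattern. Cx3cl1 averaged 105 ± 4.74 under isotype, 98.9 ± 9.06 under dICB, 97.6 ± 14.6 at 10 mg and 83.8 ± 10.5 at 200 mg (n = 3 each). At 200 mg against isotype it was at -0.33 ± 0.20 (edgeR adjusted p = 0.260), and at 0.19 with housekeeping gene factors and -0.01 with positive control factors. All 3 samples at 200 mg (72.3 to 93.0) lay below all isotype samples (99.8 to 108), as was so for 150 of the 635 genes tested. The direction of Cx3cl1 thus depended on the scaling. Against the median of all genes, which moves with the scaling, it hardly changed. It was at -0.36 there in the main scaling, and at -0.35 with housekeeping gene factors and with positive control factors. Cx3cr1, its receptor on monocytes and macrophages, fell from 105 ± 27.6 to 45.6 ± 3.76, by 1.19 ± 0.26 on the log2 scale (adjusted p = 0.0171). That call was lost with either of the other scalings (adjusted p = 0.0956 and 0.0951), with the code as a covariate (0.0610) and without isotype replicate 3 (0.0771) or 200 mg replicate 2 (0.0646) or 3 (0.0730). The difference between Cx3cl1 and its neighbours was not tested.

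The balance of the ligands also varied between tumours. Since each probe has its own efficiency, only changes of the ratio between samples can be read, and background limits these as well. It was not subtracted here and brings the ratio closer to even, most where counts are low, as under isotype. The log2 ratio of Ccl17 to Ccl22 lay between 0.11 and 0.36 under isotype and between -0.12 and 0.45 under dICB. It was 0.19, 1.28 and 0.68 in the 10 mg replicates and 0.44, 1.60 and 0.90 in the 200 mg replicates. The highest ratios were those of 10 mg replicate 2 and 200 mg replicate 2, the samples in which Ccl17 was highest, and the groups overlapped.

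Over the 12 samples the log2 levels of Ccl17 and Ccl22 had a Pearson r of 0.90 and a Spearman rho of 0.94, and r was 0.91 without the 2 samples farthest from the median of Ccl17. These values contain the differences between groups by which the genes were chosen, and carry no test. Within groups, as deviations from group means, r was 0.67 and rho 0.72 (exact permutation within groups, two-sided, unadjusted p = 0.0463 and 0.0177). Adjusted over the 3 pairs among these genes the values were 0.139 and 0.0532, but 2 of those pairs involve Ccr4, whose counts lay at background and could show no relation. The permutation treats the replicates of a group as exchangeable, yet replicate 2 was the highest for both genes in every group. The part of the replicate number in these values was not tested. The levels of both genes were known when they were chosen, so these p-values are no support for a relation. No call is made on the relation within groups.

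Ranked over 634 genes by Pearson r across the 12 samples, those most like Ccl17 were Ccl22, Ccl24 (0.89), an eosinophil chemokine, Itgax (0.89), which encodes the integrin CD11c of dendritic cells and some macrophages, Lgals3 (0.87), which encodes galectin-3, and the MHC class Ib gene H2-T23 (0.84). Their Spearman rho lay between 0.83 and 0.94. Without the 2 samples farthest from the median of Ccl17, r was 0.91 for Ccl22, 0.75 for Ccl24 and 0.77 for Itgax. It was then 0.81 for Lgals3 and 0.80 for H2-T23. Those most like Ccl22 were Lgals3 (0.93), Ccl17, Alas1 (0.89), which encodes a heme synthesis enzyme, the MHC class II gene H2-Ab1 (0.88) and Itgax (0.87). As deviations from group means, r with Ccl17 was 0.95 for Ccl24, 0.83 for H2-T23, 0.82 for Lgals3 and 0.75 for Itgax. It was 0.67 for Ccl22, which ranked first over the 12 samples but lowest of those named within groups. With Ccl22, r within groups was 0.80 for Lgals3, 0.77 for Alas1, 0.70 for H2-Ab1 and 0.67 for Itgax. All points of one sample share a library, and the ranking is a description.

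**Figure D3:**
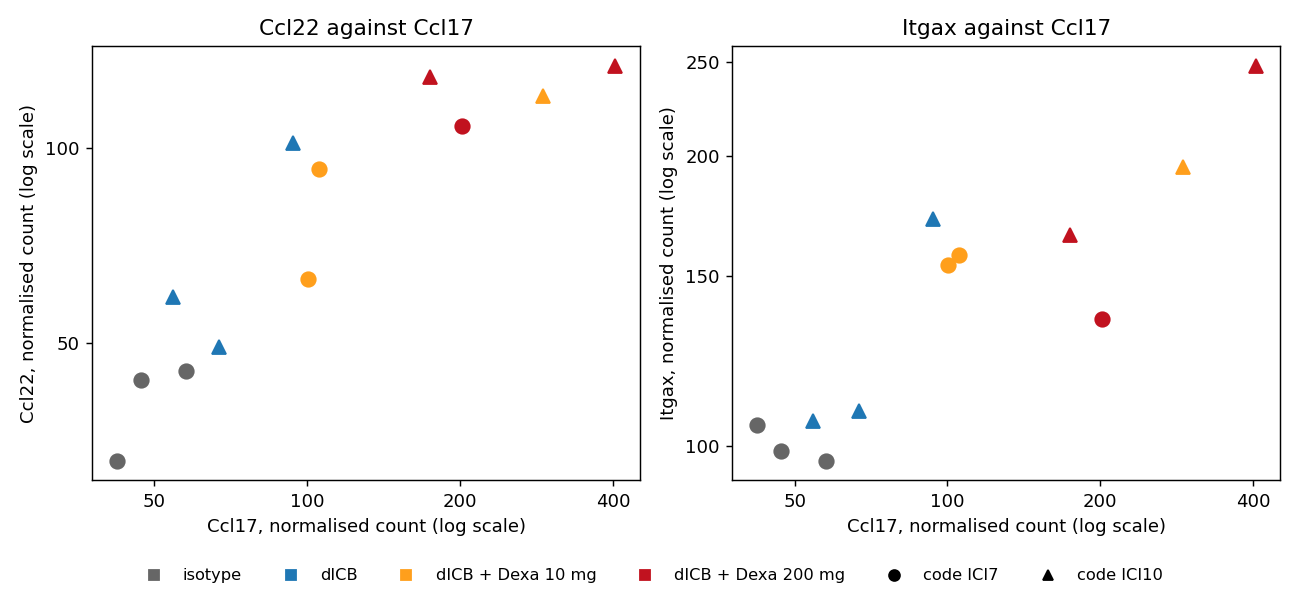
Normalised counts of Ccl22 (left) and Itgax (right) against those of Ccl17 in the 12 samples, all axes logarithmic, with colours for groups and symbols for the code in the labels. The 3 isotype samples lie lowest on the Ccl22 axis, and 200 mg replicate 2 is highest in all 3 genes.

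Markers of cells known to make these chemokines also varied between the groups. Summed dendritic cell markers (4 of 7 on the panel) ran from 167 to 194 under isotype, 206 to 251 under dICB, 228 to 278 at 10 mg and 224 to 321 at 200 mg. Most of this sum was Itgax and Ccr7: Flt3, a defining gene of dendritic cells, exceeded the limit in 0 of 12 samples and Xcr1 in 1. Summed macrophage markers (5 of 6) ran from 1021 to 1575, 1543 to 2757, 1394 to 1788 and 1894 to 2274 in the same order, and all 5 lay above the limit in all samples. Summed epithelial markers (3 of 5) ran from 602 to 755 under isotype, 336 to 620 under dICB, 496 to 750.4 at 10 mg and 362 to 387 at 200 mg. In whole tumours more cells of a type and more RNA per cell cannot be told apart, and the part of these markers in the levels of Ccl17 and Ccl22 was not tested.

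Genes of the cells that CCR4 ligands draw were measured in part. T cell markers (8 of 8) summed to 678 to 909 under isotype, 512 to 1114 under dICB, 566 to 816 at 10 mg and 691 to 1193 at 200 mg, with overlap between groups. Foxp3, the transcription factor that defines regulatory T cells, had 8 to 24 counts and exceeded the limit in 0 of 12 samples. The same held for Ccr8, a receptor of regulatory and type 2 T cells, and for the type 2 cytokines Il4, Il5 and Il9. In all, 14 of the 75 list genes on the panel had a mean under 20 counts, and none of the 14 exceeded the limit in any sample. A change in them was not detectable at this depth.

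The wider pathway was described by 8 lists with 88 genes, of which 61 were tested by edgeR over all 635 genes. In 5 of the 6 comparisons 0% of all genes and 0 of these 61 passed an adjusted p of 0.05. Unadjusted p-values under 0.05 numbered 19 of 61 for dICB against isotype, 10 for 10 mg against isotype, 8 and 12 for 10 mg and 200 mg against dICB, and 13 between the doses. Over all 635 genes they numbered 127, 53, 60, 54 and 76 in the same order. DESeq2 passed 8, 2, 0, 1 and 2 list genes in these comparisons. Over all 635 genes it passed 20 higher and 10 lower, 4 higher, 0, 2 higher and 1 lower, and 2 higher. It gave no adjusted p for 181, 11, 11, 11 and 158 of the 635, and for 73 at 200 mg against isotype. Such genes count as not passed in every DESeq2 count given here. At 200 mg against isotype 12 of 61 passed, 10 higher and 2 lower, where 13.2% of all genes passed, 6.14% higher and 7.09% lower. This count rested on single libraries. It was 0 without isotype replicate 3, 7 without isotype replicate 2 or 200 mg replicate 3, and 8 without 200 mg replicate 2 or with the code as a covariate.

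Among other CC chemokines, 5 of 18 tested rose at 200 mg against isotype and 0 fell, where 6.14% of all genes rose and 7.09% fell, with a median of 0.65 against 0.03 over all genes. Ccl9, a myeloid chemokine, rose from 415 ± 152 to 1747 ± 219 (2.07 ± 0.38, adjusted p = 0.0107), and Ccl6, a close relative, by 1.92 ± 0.32. Ccl11, the eosinophil chemokine eotaxin, rose from 73.5 ± 12.1 to 298 ± 66.7 (2.02 ± 0.33, adjusted p = 0.00665). Ccl8 rose by 1.81 ± 0.39, or 1.16 without 200 mg replicate 3 (adjusted p = 0.0658), with the call also lost without isotype replicate 2, and the CCR7 ligand Ccl19 by 1.46 ± 0.25. Ccl24 and the monocyte chemokine Ccl2 were at 0.83 ± 0.37 and 0.18 ± 0.24 and did not pass. Without isotype replicate 3 none of the 5 passed (adjusted p from 0.0502 to 0.0771), and Ccl9 was also lost without isotype replicate 2. Under dICB alone against isotype, Ccl9, Ccl6, Ccl11, Ccl8 and Ccl19 were at 1.33, 1.25, 0.91, 0.55 and 0.43, and none passed. At 200 mg against dICB they were at 0.74, 0.67, 1.11, 1.26 and 1.03, and none passed. Of other CC receptors at 200 mg against isotype, 0 of 5 tested passed by edgeR and 2 by DESeq2, with 2 at an unadjusted p under 0.05. Over all 635 genes DESeq2 passed 64 higher and 59 lower there, and 205 had an unadjusted edgeR p under 0.05. The monocyte receptor Ccr2 was at 0.93 ± 0.29 (adjusted p = 0.0558) and Ccrl2, an atypical receptor, at 0.51 ± 0.48.

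Of 8 tested genes of alternatively activated macrophages, a state that type 2 cytokines induce, 4 rose at 200 mg against isotype and 0 fell, where 6.14% of all genes rose. The other 4 were at 0.27 to 0.83 and did not pass (adjusted p from 0.127 to 0.642). All 8 values were above 0, as were 51.7% of all genes, and their median was 1.15. Chil3, a chitinase-like protein, rose from 40.2 ± 6.96 to 648 ± 461 (4.01 ± 0.64, adjusted p = 0.00665), and Arg1, the enzyme arginase, from 364 ± 83.2 to 1461 ± 326 (2.01 ± 0.32). The scavenger receptor Marco rose by 2.27 ± 0.51 and the beta-glucan receptor Clec7a by 1.46 ± 0.27. Without isotype replicate 3 none of these 4 passed (adjusted p from 0.0502 to 0.0771), and Marco was also lost without isotype replicate 2 or 200 mg replicate 2 or 3, or with the code as a covariate (0.0599). Summed macrophage markers, given above, were likewise higher at 200 mg than under isotype, and their part in these values was not tested. Under dICB alone against isotype, Chil3, Arg1, Marco and Clec7a were at 2.48, 1.66, 2.21 and 1.16. At 10 mg against isotype these genes were at 2.10, 0.68, 1.21 and 0.67. At 200 mg against dICB they were at 1.53, 0.34, 0.06 and 0.29. In these 3 comparisons none of them passed.

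Dendritic cell genes passed about as often as all genes, with 1 of 11 against 13.2%, and had a median of 0.22. The costimulatory gene Cd86 rose from 88.0 ± 17.8 to 152 ± 23.9 (0.79 ± 0.22, adjusted p = 0.0353). That call was lost within code ICI7 (adjusted p = 0.214), with the code as a covariate (0.172) and without any 1 of 7 libraries, among them all 200 mg samples. Itgax was at 0.87 ± 0.27 (adjusted p = 0.0512), the transcription factor Irf8 at 0.09 ± 0.19 and the maturation gene Cd83 at -0.42 ± 0.22. By DESeq2 3 genes of this list passed, where 64 of all 635 genes passed higher and 59 lower.

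Regulatory T cell genes and type 2 genes gave 0 calls among 6 and 7 tested, by edgeR and by DESeq2. Of them 1 and 0 had an unadjusted edgeR p under 0.05, where 205 of all 635 genes did. Over all genes edgeR passed 13.2%, and DESeq2 passed 64 higher and 59 lower. The medians of these lists were 0.04 and 0.26. Il2ra, the interleukin-2 receptor chain of regulatory and activated T cells, was at 0.72 ± 0.25 (adjusted p = 0.0716). Ctla4, Icos and Ikzf2 were at -0.46 ± 0.26, 0.08 ± 0.29 and 0.02 ± 0.24. Il4ra, the receptor chain shared by interleukin-4 and interleukin-13, stood at 154 ± 15.3 under isotype and 246 ± 40.8 at 200 mg (0.67 ± 0.33, adjusted p = 0.182). Stat6, through which it signals, was at -0.18 ± 0.16, and Il13ra1 at 0.17 ± 0.17.

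Upstream cytokines and NF-kB genes also passed about as often as all genes, with 1 of 9 against 13.2%, and had a median of -0.08. Nfkb2, an NF-kB subunit, stood at 990 ± 61.6 under isotype and 567 ± 53.1 at 200 mg. It fell by 0.80 ± 0.22 on the log2 scale (adjusted p = 0.0335), or by 0.27 with housekeeping gene factors (adjusted p = 0.428) and 0.47 with positive control factors (adjusted p = 0.272). The call was also lost without isotype replicate 2 or 3 or any 200 mg sample (adjusted p from 0.0611 to 0.118), with the code as a covariate (0.0637) and with background subtracted by limma (0.0616). Relb and Rela were at -0.56 ± 0.18 and -0.51 ± 0.22. Csf2, a cytokine that supports dendritic cells, exceeded the limit in 7 of 12 samples and was at 0.09 ± 0.29.

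**Figure D4:**
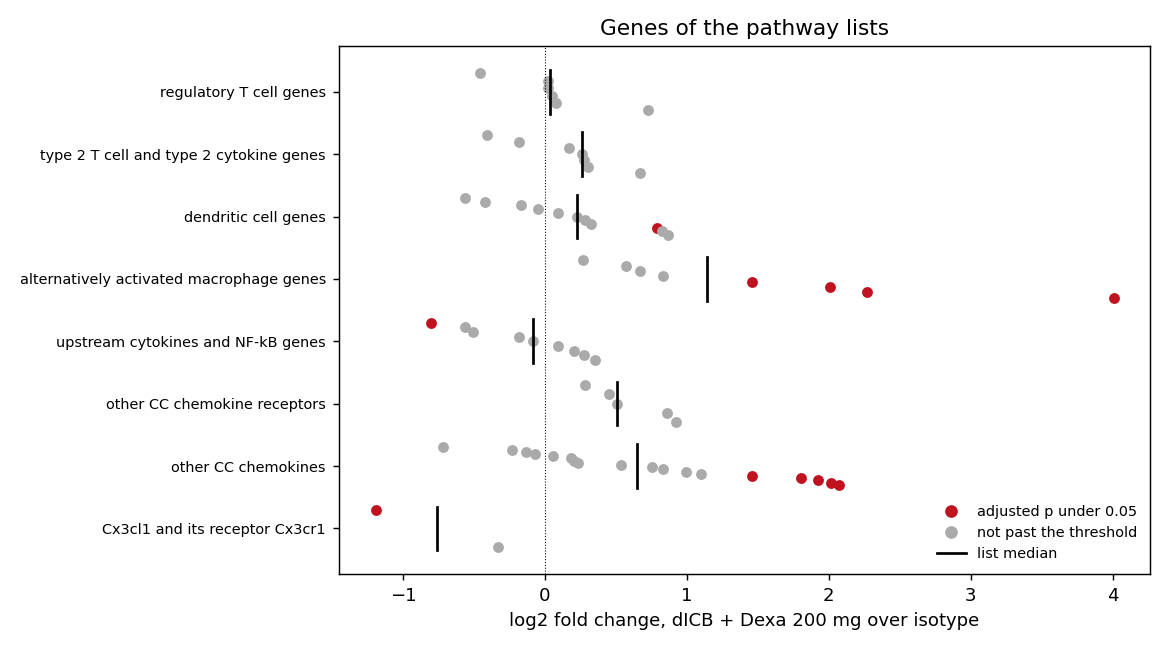
Log2 fold changes of the tested genes of 8 pathway lists at dICB with Dexa 200 mg against isotype (1 point per gene and list). Red points passed an adjusted p of 0.05 and black bars are list medians, from -0.76 for the pair Cx3cl1 (-0.33) and Cx3cr1 (-1.19) to 1.15 for alternatively activated macrophage genes.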

How the data were processed

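Whole-number counts per probe, not normalised, were the deposited values for 770 genes, 6 positive controls and 8 negative controls in 12 samples. Per the labels' protocols, RNA came from formalin-fixed, paraffin-embedded primary tumours (Qiagen miRNeasy FFPE kit). The instrument and counting software were not given in the sources used here. The deposited counts still held background, since negative controls were above 0.

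The counts were fitted in R 4.3.3 with edgeR 4.0.16 (TMM scaling, quasi-likelihood, a mean per group over all 12 samples). Genes averaging 20 or more counts over all samples (635 of 770) entered two-sided tests, adjusted by Benjamini-Hochberg within each comparison, with a threshold of 0.05. Standard errors are approximate (log2 fold change divided by the root of F). Correlations used log2 of normalised counts plus 1. DESeq2 1.42.0 and limma 3.58.1 (background subtracted, floor of 1 count) were alternatives, beside other scalings, filters, the code, the replicate block and left-out libraries. The fits were tested on simulated data. Every pair of samples within a group differed beyond counting noise (lowest chi-square ratio 4.05).

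The genes, lists and tests were chosen with earlier results of these data known. Named were Ccl17, Ccl22, Ccr4, Cx3cl1, Cx3cr1, Foxp3, Il4ra and Csf2, list genes past the threshold, the 3 most abundant tested genes of each list, and the 5 genes most like each ligand (not done for Ccr4, which lay at background). One gene that this rule named is not reported here. Ccr8, Il4, Il5, Il9, Il2ra and Epcam were named after their values were seen. No protein sequences were used here.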

Additional observations from a re-analysis of the deposited data

How the results depend on the processing

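Without both libraries that stood apart, the log2 difference of Ccl17 was 1.07 for 10 mg against isotype, 0.34 for 10 mg against dICB and 1.33 between the doses, and that of Ccl22 for 10 mg against dICB was -0.0020. With 1 library left out at a time, Ccl17 ran from 1.05 to 2.04, 0.52 to 1.52 and 0.12 to 1.33 in these comparisons. Ccl22 ran from 0.40 to 0.99 for dICB against isotype and from 0.14 to 0.81 for 10 mg against dICB. With the code as a covariate, Ccl17 was at -0.46 for dICB against isotype and 1.73 for 200 mg against isotype, and Ccl22 at 0.34 for dICB against isotype. Within code ICI7 Ccl17 was at 1.05 for 10 mg against isotype. Within ICI10 it was at 2.02 for 10 mg against dICB and -0.014 between the doses, and Ccl22 at 0.77 for 10 mg against dICB. The median of all genes for dICB and 200 mg against isotype, 0.03 in both with the main scaling, was 0.46 and 0.55 with housekeeping gene factors, where Ccl22 was 1.26 and 2.15, and 0.15 and 0.34 with positive control factors. Calls at 200 mg against isotype were then 97.0% and 96.5% higher, against 46.4% in the main scaling. Background subtraction with limma put Ccl22 at 1.73 and 2.36 for 10 mg and 200 mg against isotype. The cause of these changes was not tested.

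List genes called for dICB against isotype, 0 in the main fit of edgeR, were 8 by DESeq2, 9 and 3 with housekeeping and positive control factors, 1 with no filter, 3 without both libraries and 0 to 10 with 1 library left out. Of all genes, 20 higher and 10 lower passed there by DESeq2, 45 with housekeeping factors and 4 with positive control factors. DESeq2 passed 2, 1 and 2 list genes for 10 mg against isotype, 200 mg against dICB and between the doses. Between the doses there were 3 within code ICI7 and 1 without both libraries. For 200 mg against isotype, with 12, there were 23 with housekeeping factors, 22 with the compared groups alone, 22 without both libraries and 0 to 17 with 1 library left out. Of all genes, 84 passed there, and 166, 181, 29, 148 and 169 with housekeeping factors, compared groups alone, code as covariate, within ICI7 and without both libraries; with 1 library left out the count ran from 0 to 136.

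Over all tested genes, replicate numbers did not pair the samples: deviations of same-numbered samples correlated between -0.385 and 0.29, above 0.1 in 4 of 18 pairs. For Ccl17 and Ccl22, however, replicate 2 was the highest of its group in every group. Whether the replicate number marks something shared by these samples was not tested. With the replicate block, Ccl17 and Ccl22 at 200 mg against isotype were 2.31 and 1.61, and 14 list genes passed. The SE of Ccl17 in that comparison was 0.28 with the block and 0.46 in the main fit.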
